A study of Homo sapiens with 6 samples.

Results

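Replication origin centres mapped by OK-seq, the sequencing of Okazaki fragments, were set against gene positions and nascent transcription in RPE1, a human retinal pigment epithelial cell line immortalised with telomerase. The deposited table holds 2040 centres, and all of them were used. The cells in which OK-seq was done were not given in the sources used here. All centres were joined to the 9944 transcription start sites (TSSs) of the deposited coordinate table. That table gives each gene's strand, length and nascent transcription over the gene body by BrU-seq in WT cells. The series itself comprises 6 anti-TY ChIP-seq samples in 2 groups of 3 untreated samples. One group is RPE1 iCas9 p53/puro-dKO WT, which carries no TY tag, so that its signal is antibody background. The other is CFAP20-KO carrying TY-CFAP20 in the same parental line, so both groups lack p53, and what drives TY-CFAP20 was not given. Both were grown without treatment to near confluence. Neither the centres nor the BrU-seq levels come with replicate values, and the ChIP densities are 1 average per group. No replicate error or p-value could therefore be given, and depth is unknown. Bracketed ranges are 95% Wilson intervals for shares and 95% order-statistic intervals for medians, and they cover counting error only. Centres that serve neighbouring genes are shared between those genes, so the genes are not independent.

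DNA replication starts at licensed origins, where the MCM helicase is loaded in G1 phase and fired in S phase. On the strand copied discontinuously, DNA is made as Okazaki fragments, so the strand bias of these fragments switches where forks leave an origin in opposite directions. OK-seq reads that switch, which in human cells is often spread over a broad initiation zone, and a centre marks the middle of it. BrU-seq labels new RNA with bromouridine and reads transcription as it happens. Forks that leave a centre upstream of a gene enter it in the direction of transcription, whereas forks that enter from beyond the gene end meet RNA polymerase head-on.

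The sequences at 3 centres are shown because they stand for the placements described here, namely at a TSS, deep inside a weakly transcribed long gene, and between divergent genes. Each runs 50 bp to either side of the centre on the hg38 reference, 5′ to 3′ on the strand of the named gene, with CpG dinucleotides in capitals. Every centre lies on a grid of 500 bp, so single bases carry no positional meaning.
RP11-43N5.1 centre: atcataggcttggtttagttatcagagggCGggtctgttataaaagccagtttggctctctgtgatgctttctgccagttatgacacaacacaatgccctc
ABCA13 centre: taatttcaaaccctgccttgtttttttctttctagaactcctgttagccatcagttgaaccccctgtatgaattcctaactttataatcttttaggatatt
DYNC2H1 centre: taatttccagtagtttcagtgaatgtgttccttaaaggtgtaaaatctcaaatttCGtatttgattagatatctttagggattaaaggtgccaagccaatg
The RP11-43N5.1 window is chr12:67729451-67729551 (minus strand), and its midpoint lies between annotated genes at -26 bp from the TSS. The ABCA13 window is chr7:48261451-48261551 (plus strand) and is intronic. The DYNC2H1 window is chr11:103100951-103101051 (plus strand) and is intergenic. GC content was 45.5%, 33.7% and 32.7% in that order, and the windows held 1, 0 and 1 CpG. The DYNC2H1 window was chosen after the values were seen, and the other two by a rule.

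Origin centres lay more often upstream than downstream of the nearest gene start, and 804 of them (39.4%) lay within 10 kb of it by the deposited distances. In the authors' deposited table of centres the median distance to the nearest TSS was 13106 bp [12696 to 13886], with quartiles of 6275 and 26974 bp. By its sign, 1483 of 2040 centres were upstream of their gene, or 72.7% [70.7 to 74.6]. Upstream centres were also closer to the TSS, at a median of 11403 bp against 23427 bp for downstream ones. Within 10 kb of a TSS, 667 of 804 centres were upstream, or 83.0%.

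The excess did not peak at the TSS itself. Upstream centres rose from 47 per kb in the first kilobase to 79.6 per kb between 5 and 7.5 kb, and fell to 33.2 per kb between 15 and 20 kb. Downstream centres numbered 12.4 per kb between 5 and 7.5 kb. The sides evened out with distance, with 81 centres upstream and 77 downstream between 50 and 100 kb. Beyond 100 kb the order turned, with 60 upstream and 109 downstream.

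**Figure D1:**
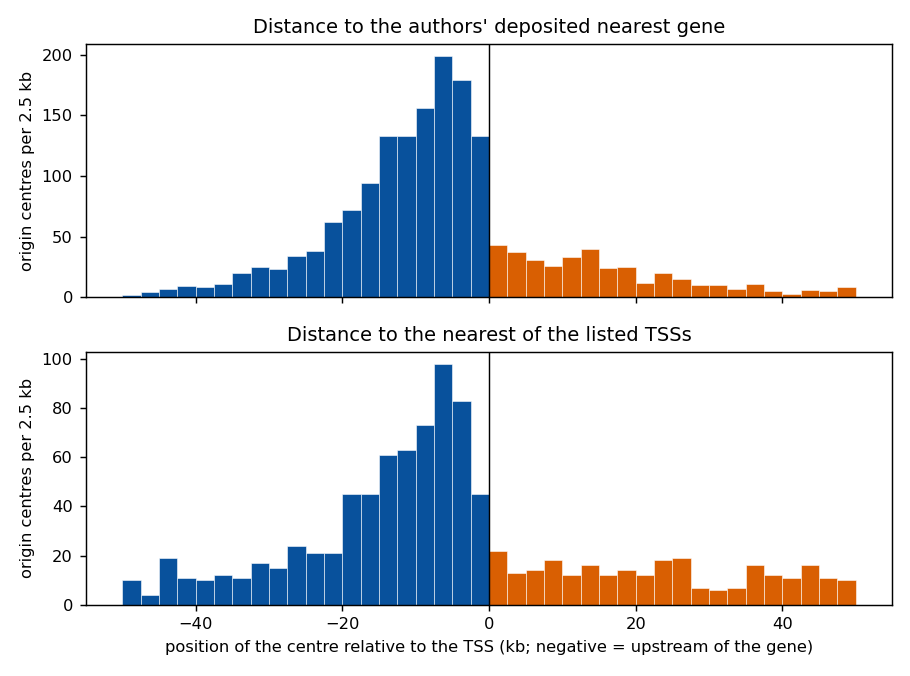
Number of origin centres per 2.5 kb (vertical axis) by position relative to the TSS in kb (horizontal axis, negative upstream), for the gene that the authors deposited with each centre (top) and for the nearest of the 9944 listed TSSs (bottom). Upstream bars (blue) outnumber downstream bars (orange) within 20 kb in both, and the tallest bar lies 5 to 7.5 kb upstream.

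The coordinate table gave longer distances, and many deposited genes are not in it. Only 692 centres have a deposited gene that is also in that table, and 641 centres had the same nearest gene in both. For these, 634 lay on the same side. The median distance to the nearest listed TSS was 57742.5 bp [52140 to 64151], and 1179 centres, or 57.8% [55.6 to 59.9], were upstream of it. A further 96 were in the body of that gene and 765 beyond its end. Close to genes the picture was that of the deposited distances, with 299 of 366 centres within 10 kb upstream (81.7%). Against all GENCODE protein-coding TSSs, a set chosen after seeing the data, the median was 16008.5 bp and 71.4% of centres were upstream.

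The name of the deposited table points to a selection for TSSs with an empty stretch of 5 kb upstream, but how it was made was not given in the sources used here. Of the centres, 312 lie within 5 kb upstream of their deposited TSS, so such a stretch was not empty of centres. Of the protein-coding genes deposited with a centre, 87.6% had no other protein-coding gene in the 5 kb upstream, against 61.1% of all protein-coding genes. The part of such a selection in the upstream excess was not tested. Nor was its part in the spacing, gene body, gene length and orientation results that follow, which use the same centres.

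The deposited centres were sparse and well separated, though how they were selected was not given. The median gap between neighbours on a chromosome was 793000 bp, and 73 of 2017 gaps were under 100 kb. The closest pair, 39 kb apart on chromosome 2, has the deposited genes RBM45, an RNA-binding protein, and OSBPL6, an oxysterol-binding protein. The first centre lies at 39064 bp from the RBM45 TSS and the second at -3980 bp from that of OSBPL6.

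Gene bodies held few centres. Of the 2040, 99 lay inside a listed gene, or 4.85%, while these genes cover 12.5% of the called genome. With all GENCODE protein-coding genes, 378 centres were genic (18.5%), against 44.7% of called sequence. Of those, 37 were exonic and 341 intronic. Over the listed genes there were 0.272 centres per Mb of gene body, 2.83 per Mb in the 20 kb before the TSS and 1.08 per Mb in the 20 kb past the gene end. For the 819 genes over 100 kb these densities were 0.111, 7.57 and 1.71 per Mb.

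The genes that hold a centre had a lower median BrU-seq level than all listed genes, but were less often without a value. No listed gene held more than 1 centre, and 0.996% of all listed genes held any. Their median BrU-seq level was 0.116, against 0.587 over all listed TSSs with a value, in the authors' signal units. A value was missing for 10.1% of them and for 36.4% of all. The genes that hold a centre were also longer, with a median of 31048 bp against 17074 bp over all listed genes. Genes of the lowest BrU-seq class are longer than those of the highest, with median lengths of 38466.5 and 12816 bp. Per Mb of gene body, centres numbered 0.359 in the lowest class (39 centres), 0.341 in the second (28) and 0.116 in the third (8). They numbered 0.471 in the highest (14) and 0.134 without a value (10). Counted from the TSS in 5 equal stretches of the gene, 30, 14, 20, 20 and 15 centres fell in the first to the last stretch. The longest such gene was ABCA13, a large ABC transporter gene of 476.036 kb with a BrU-seq level of 0.0513, whose centre lies 90041 bp into the gene. RNF150, encoding a RING finger protein, spans 347.307 kb at a level of 0.0173, with the centre at 38376 bp. The non-coding LINC01483 had a level of 0.0409 and its centre at 136014 bp, and another non-coding gene, of 244.71 kb, had 0.0135 and 143403 bp. DYSF, which encodes the membrane repair protein dysferlin, was the exception among the 5 longest, with a level of 1.15 and its centre at 2779 bp. At the short end, RP11-61K12.2, TMEM191A, RP11-190J1.3 and RP11-473I1.6 each held 1 centre in a gene of 3362 to 3859 bp.

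Within 10 kb of a centre lay 376 of the 9944 TSSs, and the share over all listed TSSs was 3.78%. For 308 of them the centre was upstream (3.1% of all). For 68 it was downstream (0.684% of all), 50 times in the gene body and 18 times beyond the end of a short gene. No centre lay within 50 kb of 8790 TSSs. At the limit, TCEANC (9814 bp), KIF13A (-9932 bp) and PLEKHB2 (-9943 bp) were just inside, and COMMD7 (-10004 bp), GOLIM4 (-10026 bp) and CTSO (-10084 bp) just outside.

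Genes close to a centre were longer by the median, had a higher median BrU-seq level and more often had a BrU-seq value than genes far from one. The median length was 32974 bp [28712 to 39519] near a centre and 16481.5 bp [15932 to 17044] with none within 50 kb, a ratio of 2.001. That ratio was 1.05 within the lowest BrU-seq class and 0.747 among genes without a value. The median BrU-seq level was 0.951 [0.749 to 1.14] near and 0.501 [0.451 to 0.551] far, a ratio of 1.90. A BrU-seq value was missing for 9.57% [6.996 to 13.0] of near TSSs and for 39.2% [38.2 to 40.3] of far ones. A missing value was kept as a class of its own and not read as 0.

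The side of the centre separated these genes further. With the centre upstream, the median length was 42583.5 bp, the median BrU-seq level 1.01, and 63 of 308 genes (20.5%) exceeded 100 kb, against 7.39% of far genes. With the centre in the body, the medians were 14942 bp and 0.273. With the centre beyond the gene end, they were 4596.5 bp and 3.90, since only a gene shorter than 10 kb can have its end so close to its start. TSSs with a centre 10 to 50 kb away had medians of 20636.5 bp and 1.17.

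The share of TSSs with a centre within 10 kb was lowest in genes without a BrU-seq value, 36 of 3619 (0.995% [0.719 to 1.37]). Among genes with a value, ranked into 4 equal classes, it was 2.97% [2.24 to 3.93] in the lowest, then 5.44%, 7.21% [6.04 to 8.59] and 5.88% [4.83 to 7.15] in the highest. In 10 equal classes it was 1.58% in the lowest, 7.75% [5.91 to 10.1] in the ninth and 4.42% [3.08 to 6.32] in the highest. The highest class of 10 holds short genes, with a median length of 7751 bp. By length in 4 equal classes the shares were 2.37%, 2.74%, 3.38% and 6.64% [5.72 to 7.68] from the shortest to the longest.

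Length and transcription went together in these shares. Among the longest genes (41261 bp and over), 77 of 587 in the third BrU-seq class had a centre within 10 kb (13.1% [10.6 to 16.1]) and 19 of 148 in the highest (12.8% [8.37 to 19.2]). In the lowest class it was 23 of 756 (3.04% [2.04 to 4.52]), and among long genes without a value 2 of 419 (0.477% [0.131 to 1.72]). The centre was upstream for 75 of those 77 genes and for all 19. Of 481 short and highly transcribed genes (7545 bp or less), 12 had the centre downstream (2.49% [1.43 to 4.31]), 9 of them beyond the gene end. Another 5 had it upstream (1.04% [0.445 to 2.41]), and these intervals overlap. Over all listed TSSs the shares were 0.684% downstream and 3.1% upstream. Genes this short end within 10 kb of their start, so their downstream side takes in sequence past the gene.

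**Figure D2:**
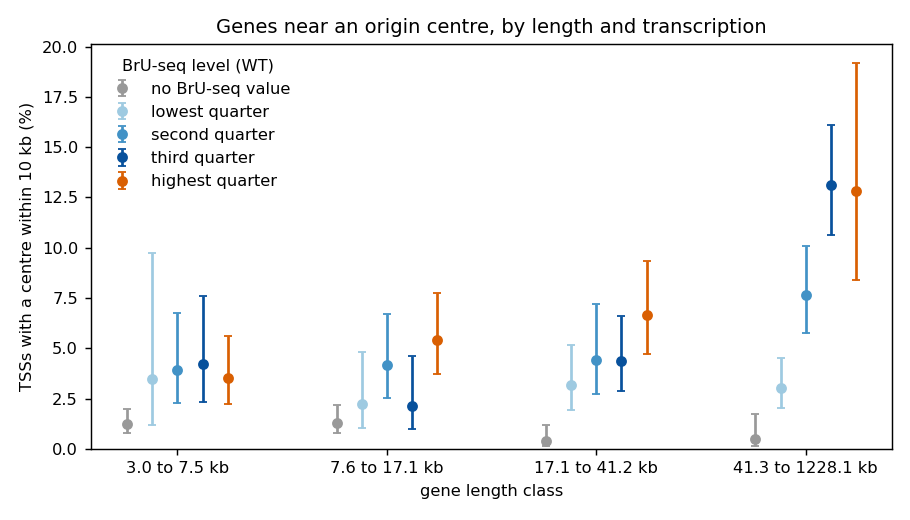
Share of TSSs with an origin centre within 10 kb in percent (vertical axis) by gene length class (horizontal axis) and BrU-seq class (colours). Points are shares and bars 95% Wilson intervals, and the shares of 13.1% and 12.8% in the longest genes are the highest, although the interval of the second overlaps that of the second BrU-seq class.

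Along the gene, the upstream excess ended at the TSS. Counts of centre and gene pairs per 1000 genes and 10 kb averaged 28.1 over the 20 kb before a listed TSS, 6.39 over the 20 kb after it and 8.08 at 50 to 100 kb. The ratio of the first to the last was 5.86 in the third BrU-seq class, 4.74 in the highest, 4.03 in the second, 1.75 in the lowest and 1.13 without a value. After the TSS, the 20 kb held 0.486 times the pairs seen at 50 to 100 kb in the third class, 1.09 times in the highest, 1.14 times in the second, 0.730 times in the lowest and 0.602 times without a value. Over genes of all lengths, a deficit after the TSS was thus not shared by the highest and second classes.

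At gene ends the classes differed. The 20 kb past the end had 1.98 times the pairs of the 50 to 100 kb distance in the highest class and 1.73 times in the second. It had 1.12 times in the third, 0.559 times in the lowest and 0.672 times without a value. Genes over 50 kb, examined after seeing the data, keep both ends apart. In the third class 486 such genes had 125 pairs in the 20 kb before the TSS and 2 in the first 20 kb of the gene. At their ends they had 0 pairs in the last 20 kb of the gene and 19 in the 20 kb past it. In the highest class 86 genes had 24 pairs before the TSS and 0 in the first 20 kb of the gene. The second class had 71 and 3 over 495 genes, and the lowest had 26 and 4 over 638. The 322 long genes without a value had 3 and 0. Per 1000 genes, pairs before the TSS numbered 279 in the highest class, 257 in the third and 143 in the second. They numbered 40.8 in the lowest and 9.32 without a value.

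**Figure D3:**
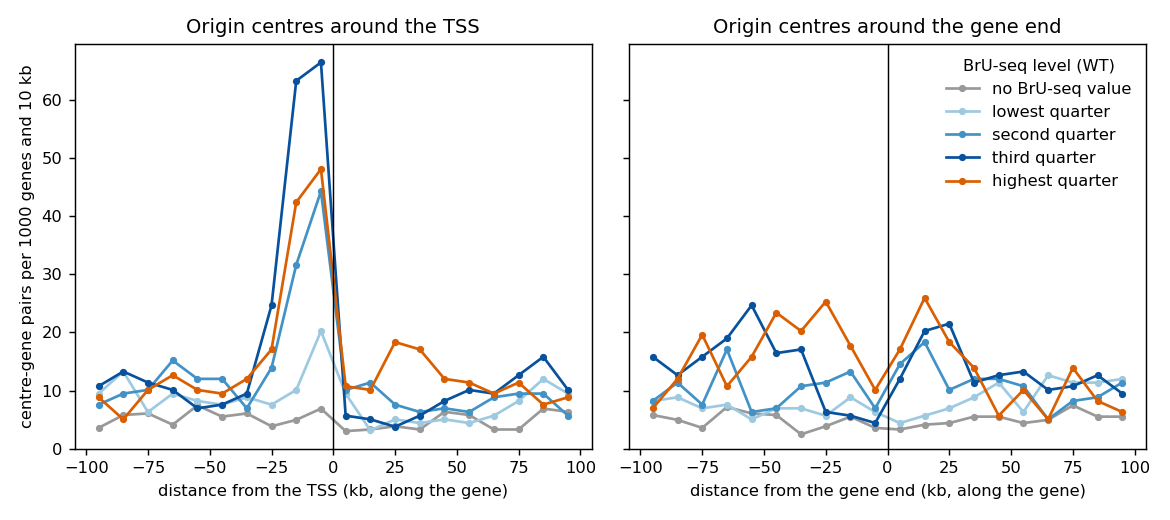
Centre and gene pairs per 1000 genes and 10 kb (vertical axis) by distance in kb along the gene from the TSS (left) and from the gene end (right), one line per BrU-seq class. The lines of the 3 upper classes rise in the 20 kb before the TSS, to 66.4 in the third class, and drop at the TSS, while the line without a value stays at or under 6.91 there.

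The genes on either side of a centre tended to point away from it. This comparison was added after seeing the data and uses GENCODE protein-coding genes, whose gaps held 1657 centres. Divergent gaps, where both flanking genes start at the gap, held 619 centres, or 37.4% [35.1 to 39.7], in 25.5% of the gap length. Tandem gaps held 873 (52.7%) in 52.2% of the length. Convergent gaps, where both genes end at the gap, held 165 (9.96% [8.61 to 11.5]) in 22.3%. Densities were 1.48, 1.02 and 0.452 centres per Mb. The order was the same within gaps under 50 kb (5.50, 3.45 and 1.23 per Mb), of 50 to 200 kb (2.7, 1.99 and 0.926) and of 200 kb or more (0.635, 0.421 and 0.285). With the genes of the coordinate table alone, which leave out many neighbours, the contrast was smaller, at 28.5% divergent, 50.1% tandem and 21.4% convergent in 24.0%, 50.9% and 25.2% of the length.

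**Figure D4:**
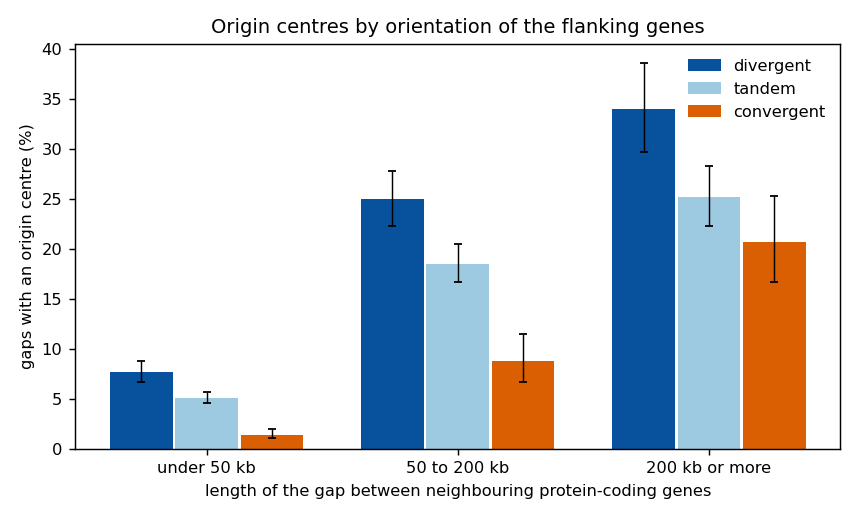
Share of gaps between neighbouring protein-coding genes that contain an origin centre, in percent (vertical axis), by gap length (horizontal axis) and orientation of the flanking genes (colours), with 95% Wilson intervals. In each length class divergent gaps are highest and convergent gaps lowest, from 7.67% and 1.42% under 50 kb to 34.0% and 20.7% at 200 kb or more.

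A centre lay within 10 kb of 2 listed TSSs in 10 cases, of which 9 were divergent pairs, 1 was tandem and 0 were convergent. Starts this close are often divergent in any case, and of all 700 pairs of listed TSSs within 20 kb of each other, 51.7% were divergent, 45.1% tandem and 3.14% convergent. That background was added after seeing the data, and with 10 cases nothing is read from the difference. The centre between DCUN1D5, a neddylation factor, and DYNC2H1, the heavy chain of the ciliary dynein-2 motor, was nearly midway, at -8786 and -8574 bp. ANKS6, a ciliary protein, and GALNT12, a mucin-type glycosyltransferase, shared one at -5962 and -5198 bp. The ATP6V1E1 and BCL2L13 centre was at -7683 and -2089 bp, and that of TGDS and GPR180 at -4744 and -902 bp. In 7 of the 9 divergent pairs the centre lay between the starts. In the other two it did not, at DCLRE1C (-9453 bp), which encodes the Artemis nuclease, with MEIG1 (4062 bp), and at EEF1A1 (6531 bp) with RP11-505P4.7 (-9117 bp).

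The TSSs closest to a centre mostly belonged to genes with a low BrU-seq level or with no value. RP11-43N5.1 lay at -26 bp with a BrU-seq level of 0.0308, and TMEM27, the gene of collectrin, at 30 bp with 0.00557. C2orf73 (67 bp) and IBSP (-80 bp), the gene of bone sialoprotein, had levels of 0.0813 and 0.114. RP3-422G23.4 (96 bp) and AC097532.2 (-124 bp) had no BrU-seq value, nor did RP4-705F19.1 (245 bp) and RP11-753B14.1 (-869 bp), the next closest of that class. TMEM206 (-106 bp), a chloride channel gene, was higher at 0.780.

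The most transcribed genes near a centre, named here, had it several kilobases away, where near already means within 10 kb. EEF1A1, which encodes a translation elongation factor, had a BrU-seq level of 641.7 and its centre at 6531 bp. RPL6, a ribosomal protein gene, had 92.4 and a centre at 9640 bp. SFPQ, a splicing factor gene, had 49.1 with the centre at -3353 bp. TKT, the pentose phosphate enzyme transketolase, and ANXA2, a membrane-binding annexin, had 48.7 and 44.6 with centres at -9470 and -7015 bp. In EEF1A1 and RPL6, alone among the genes just named, the centre was downstream, beyond the end of a gene of 5281 and 4443 bp. Next by BrU-seq level came DLG1-AS1 (29.4, centre at 9749 bp), CALM2 (26.7, -900 bp) and RND3 (24.6, -1807 bp). The distance thus varied among highly transcribed genes.

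Gene lists were taken by function, and few of their members are in the coordinate table. Of origin licensing genes 9 of 15 were listed, and 2 had a centre within 10 kb. These were MCM3, a subunit of the replicative helicase, at -7250 bp, and MCMBP, an MCM-binding protein, at -6747 bp. Of origin firing and replisome genes 7 of 27 were listed, and 1 was near, GINS1 of the CMG helicase at -4226 bp. The next, MCM10, had its centre at -11.578 kb. Of genes at classical replication origins 2 of 9 were listed, DNMT1 and HPRT1, whose nearest centres were at -502.866 and 569.848 kb. Common fragile site genes had 0 of 25 listed. Of immediate-early genes 10 of 21 were listed and 1 was near, the stress-induced factor ATF3, which holds its centre at 3167 bp. Of cytosolic ribosomal protein genes 11 of 67 were listed and 1 was near (RPL6). Of extracellular matrix and cytoskeleton genes 7 of 25 were listed and 1 was near, the actin-binding caldesmon gene CALD1 at -8149 bp. With so few members, these counts were not read against the 3.78% of all listed TSSs.

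Of the cell type markers, MITF, OTX2 and RPE65 of the retinal pigment epithelium and ALB, CD3E and SFTPB of other lineages were listed. BrU-seq levels were 1.40 for MITF, 10.0 for OTX2, 0.852 for SFTPB and 0.0192 for ALB. CD3E had no value, and RPE65, the visual cycle isomerase of differentiated pigment epithelium, had none either. No centre lay within 50 kb of any of them, as was the case for 8790 of all 9944 listed TSSs.

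Centres were found on 23 chromosomes at densities that did not rank as those of listed genes did. Over all of them there were 0.701 per Mb of called sequence and 20.6 per 100 listed TSSs. Chromosome 1 had the most, 205. Chromosome 19, the most gene-dense with 7.99 listed TSSs per Mb, had 25, or 0.428 per Mb and 5.35 per 100 TSSs. Chromosome X had the lowest density, 51 centres at 0.329 per Mb. The upstream share by the deposited sign lay between 64.3% on chromosome 18 and 85.7% on chromosome 16.

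**Figure D5:**
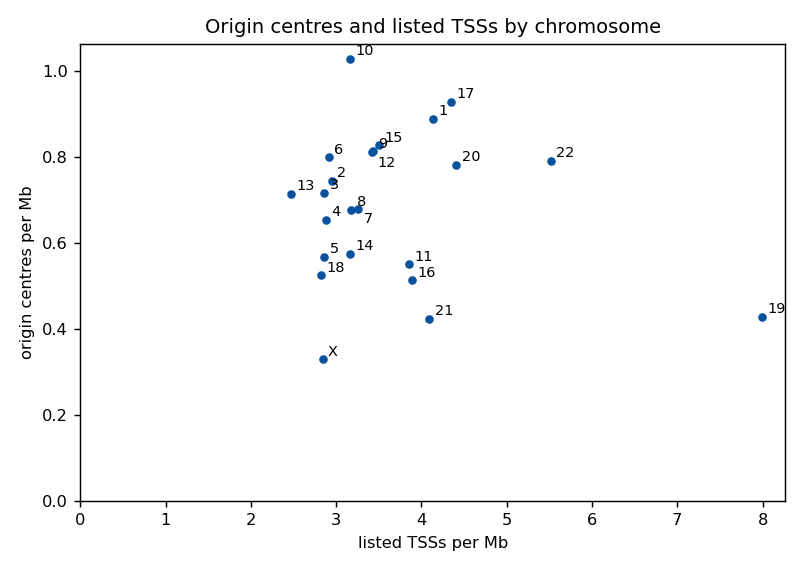
Origin centres per Mb (vertical axis) against listed TSSs per Mb (horizontal axis), 1 labelled point per chromosome. Chromosome 19 lies far right at 0.428 centres per Mb, chromosome 10 is highest at 1.03 and chromosome X lowest at 0.329.

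Chromosome 10 was highest, with 137 centres and 1.03 per Mb. The excess lay beyond 60 Mb, a boundary chosen after seeing the data, with 91 centres at 1.23 per Mb against 0.773 before it and 0.685 on the other chromosomes. Of TSSs there, 7.11% had a centre within 10 kb, against 3.73% on other chromosomes. The ChIP density in the flanks of TSSs was also higher there in both groups, at a median of 1.00 against 0.663 in WT and 1.19 against 0.753 in TY-CFAP20. Whether copy number has a part in the number of centres was not tested.

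The sequence at centres differed little from its surroundings. In windows of 1000 bp to either side, median GC content was 42.3% at centres, 41.6% in windows 20 kb away and 40.9% in windows 50 kb away, against 50.1% at listed TSSs. CpG density was 0.900, 0.950, 0.850 and 2.25 per 100 bp. A G-quadruplex type motif, 4 runs of GGG parted by 1 to 7 bases on either strand, was in 17.9% [16.3 to 19.7] of centre windows, 19.2% [18.0 to 20.4] at 20 kb, 17.8% at 50 kb and 50.1% of TSS windows. A match is a description of letters only.

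TY-CFAP20 ChIP density within 500 bp of the TSS was available for 3000 TSSs, 197 of them near a centre. TSSs with a centre upstream had a median density of 1.51 in TY-CFAP20 and 0.796 in WT, with a median difference of 0.659 over 172 TSSs. With no centre within 50 kb the values were 1.36, 0.776 and 0.549 over 2419 TSSs. At 10 to 50 kb the difference was 0.659, as large as at upstream centres. With the centre downstream it was 0.553 over 25 TSSs, and 0.310 when only centres within 5 kb were taken. TY-CFAP20 was at least 2-fold over WT at 35.2% [28.9 to 42.1] of near TSSs and 29.8% [28.0 to 31.6] of far ones, against 30.8% of all with a WT density of at least 0.2, and the first 2 intervals overlap. Near TSSs with a density had BrU-seq levels from 0.706 (SP140L) upwards, and near TSSs without one had lower levels or no value. These densities therefore cover the more transcribed TSSs only. The higher BrU-seq level near a centre was taken over all listed TSSs with a value, not over these. The part of transcription in these densities was not tested.

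The highest differences near a centre were at LCOR, a transcriptional corepressor gene (3.40 in TY-CFAP20, 1.40 in WT, centre at -8281 bp), and at MCMBP (3.21 and 1.26). EEF1A1 had 2.66 and 1.02, and TP53BP2, which encodes a p53-binding protein, 2.23 and 0.757 with its centre at -5529 bp. LCOR and MCMBP both lie in the part of chromosome 10 with high flank density in both groups. At the other end, RP5-968J1.1 had 0.238 in TY-CFAP20 and 0.698 in WT, and CTC-444N24.11 had 0.394 and 0.823. The deposited DRIP signal, which reads DNA-RNA hybrids, was taken only for TSSs with a density. Its median was 479.96 over 197 near TSSs (quartiles 336.3 and 804.1) and 534.2 over 2419 far ones (quartiles 341.8 and 950.1), so the ranges largely overlap.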

How the data were processed

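Anti-TY ChIP-seq was done in 6 samples, 3 per group. Each WT sample had 84 µg of chromatin with 74 ng of spike-in chromatin, and each TY-CFAP20 sample 60 µg with 53 ng. These amounts differ with the group, so their part in the density differences cannot be told apart from it. The submitters' processing notes list R 4.0.5, HOMER 4.8.2, BWA 0.7.17, STAR 2.7.7a, SAMtools 1.11 and Trim Galore 0.6.5, with the build hg38 and no roles. The authors deposited read density as a spike-in normalised signal averaged per group, and origin positions with a distance to a gene. They also gave a BrU-seq signal of the gene body and a DRIP signal at the TSS. How the origin centres and the BrU-seq values were made was not given in the sources used here. Counts were not used here, so depth is unknown.

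Each centre was joined to the nearest TSS on its chromosome in Python 3.11.15 with numpy 2.4.6, pandas 2.3.3 and scipy 1.17.1, with positions 1-based and distances signed by strand (negative upstream). Near and far mean a centre within 10 kb and none within 50 kb. Classes of length and BrU-seq hold equal numbers of TSSs. Gene models are GENCODE 44. The join was tested on simulated positions. No test across genes was run, since centres and genes are not replicates. Alternatives covered distances, gene sets, chromosomes, windows and classes.

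Named genes are the 8 TSSs closest to a centre, the 6 most transcribed near one, the 5 longest genes holding one and 4 holding the most (ties, as each held 1), the 4 closest without BrU-seq value, list members near one, and the 4 largest and 2 smallest density differences. The members, lists and rules were chosen with earlier results of these data known. Genes named for divergent pairs, at the 10 kb limit, next by BrU-seq level and beside list counts were chosen after their values were seen. A few items taken by these rules are not reported here.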

Additional observations from a re-analysis of the deposited data

How the results depend on the processing

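Of 85 alternative values, 46 moved by less than their interval or, for counts, by less than 1.5 times, 35 moved further and 4 reversed. The median distance to a TSS, 57742.5 bp with the listed TSSs, was 13106 bp with the deposited distance, 79131.5 bp with TSSs that have a BrU-seq value, 219140 bp with the TSSs of the density tables, 16008.5 bp with GENCODE protein-coding TSSs and 12197.5 bp with lncRNA TSSs added. The upstream share of 57.8% became 72.7% by the deposited sign, 72.1% within 50 kb, 71.4% with protein-coding TSSs and 67.0% with lncRNA TSSs added, the last pair chosen after seeing the data. The genic share of 4.85% became 12.9% with genes extended by 5 kb and 18.5% with protein-coding genes. TSSs near a centre numbered 164, 686 and 1154 at 5, 20 and 50 kb.

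The length ratio of 2.001 was 2.58 for centres upstream and reversed to 0.581 for centres downstream and 0.747 among TSSs without a BrU-seq value. Within BrU-seq classes it came to 1.05 for the lowest and 1.59 for the highest. The BrU-seq ratio of 1.90 reversed to 0.646 for centres downstream, and was 1.29, 2.95, 2.34 and 4.53 from the shortest to the longest genes. The difference in missing BrU-seq values of -29.7 percentage points was -23.1 for centres downstream. The density difference of 0.659 at upstream centres was 0.813 within 250 bp, 0.495 within 1000 bp and 0.730 for centres within 5 kb, and at far TSSs 0.660 and 0.404 for the same windows. The GC difference of 0.6996 points was 1.40 against windows 50 kb away, where the motif difference of -1.25 points reversed to 0.166. Divergent gaps held 28.5% of centres with the listed genes, 34.0% under 50 kb and 42.1% at 50 to 200 kb. Convergent gaps held 21.4% with the listed genes and 6.87%, 7.87% and 15.5% by rising gap length. The cause of these shifts was not tested. No paired analysis was possible because the density tables hold 1 average per group, and for the same reason no replicate could be left out.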

Other observations

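Genes deposited with a centre were long. Counted once per centre, the protein-coding genes of 1245 upstream centres had a median length of 90959 bp and those of 306 downstream centres 37141 bp, against 27424 bp over all GENCODE protein-coding genes. TRPS1, a GATA-type repressor gene singled out after its value was seen, was the deposited gene of 4 centres, from -101526 to 602512 bp. EPM2A, the laforin gene, and ROBO1, an axon guidance receptor gene, had 3 each.

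The deposited nearest genes were unevenly divided between strands, with 1164 on the minus strand (57.1%) and 876 on the plus strand, while the nearest listed TSSs were 1020 and 1020. Downstream centres within 5 kb belonged to 59 plus-strand and 21 minus-strand genes, and those at 5 to 20 kb to 57 and 122. With GENCODE protein-coding TSSs the counts were 55 and 20 within 5 kb downstream, and a less uneven 51 and 65 at 5 to 20 kb. The cause was not tested.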
